A study of Mus musculus with 4 samples.

Results

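Syndecans and glypicans are the membrane-bound heparan sulfate proteoglycans, and the mouse genes examined here were the 4 syndecans Sdc1, Sdc2, Sdc3 and Sdc4 and the 6 glypicans Gpc1 to Gpc6. They were taken by gene symbol from a table of 24054 symbols, and all 10 were listed. The measurements came from soleus muscles of female *mdx* mice, which lack dystrophin through a mutation in Dmd, so both groups were dystrophic and no healthy muscle was compared. From 8 weeks of age the mice received monthly infusions into the femoral vein, either of mouse cardiosphere-derived cells (mCDCs, stromal cells grown from a mouse heart, given at passage 5) or of vehicle, the culture medium alone. Muscles were taken at the 12-month endpoint, with 2 libraries per group, and the whole muscle was sequenced, with its vessels, nerves and connective tissue. The RNA-seq libraries held between 22481391 and 27187425 expected counts. Slow and fast fibre markers, such as Myh7 and Acta1, summed to between 114814 and 132916 CPM, the count scaled to the size of its library. Nothing in the labels ties a library to an animal, so p-values measure the spread between these libraries, which may be technical.

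Both protein families carry chains of heparan sulfate, a sulfated sugar polymer, on a core protein at the cell surface. Syndecans span the membrane and end in a short cytoplasmic tail that binds adaptors and kinases, while glypicans are held in the outer leaflet by a lipid anchor. The chains bind growth factors such as fibroblast growth factors, Wnts and Hedgehogs and present them to their receptors. In skeletal muscle, Sdc3 and Sdc4 are known as surface markers of satellite cells, the muscle stem cells, and Sdc4 also gathers at adhesions to fibronectin. The question was whether transcripts of these proteoglycans, and of the enzymes and partners they work with, differed between mCDC and vehicle muscles.

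None of the 10 genes passed the test between mCDC and vehicle muscles. 8 of them passed the filter on low counts and were tested, all but Gpc2 and Gpc5, and 0 of these 8 were called in edgeR's quasi-likelihood test. A call needed more than a 1.5-fold difference and p under 0.05 before adjustment. The same thresholds called 4.0% of the 13652 genes tested. 0 genes reached an adjusted p under 0.05 in that test, while 947 had an unadjusted p under 0.05, and DESeq2 and edgeR's exact and likelihood ratio tests gave 51, 58 and 66 genes with an adjusted p under 0.05. None of the 10 was called by DESeq2 or by the exact or likelihood ratio test. The median log2 fold change of the 8 genes, mCDC minus vehicle, was -0.09, beside -0.01 over all genes tested. In vehicle replicate 2, Sdc4 was less abundant and Sdc3 more abundant than in any other library.

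Across the 8 tested genes, vehicle replicate 2 was the highest library for 5 and the lowest for the other 3. Over all tested genes it was the highest for 29.4% and the lowest for 27.2%. In this library the endothelial markers, Pecam1 and Cdh5 among them, summed to 342 CPM, against 150 CPM in vehicle replicate 1 and 159 and 191 CPM in the mCDC libraries. Its fibro-adipogenic markers, of the connective tissue cells that express Pdgfra, summed to 905 CPM, against 569 CPM in vehicle replicate 1 and 472 and 589 CPM in the mCDC libraries. Red cell markers, at 455 CPM against 244 to 280 CPM, macrophage markers, at 78.9 CPM against 45.8 to 59.7 CPM, and Schwann cell markers, at 93.05 CPM against 72.1 to 75.4 CPM, were also highest in this library, as were pericyte markers, at 384 CPM. Tenocyte markers were highest there, at 258 CPM, only through Thbs4, and without it their sum of 81.5 CPM was below that of vehicle replicate 1 and mCDC replicate 2. Of the 10 endothelial and 10 fibro-adipogenic markers, all tested and none at 0, no endothelial marker was called, although all 10 had log2 fold changes below 0, and 3 fibro-adipogenic markers, Pdgfra, Lum and Smoc2, were called lower in mCDC muscles. The part of other cell types in the differences below was not tested, and in bulk muscle fewer cells of a type and less RNA per cell cannot be told apart.

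The promoters of Sdc3 and Sdc4 are shown because these were the syndecans in which vehicle replicate 2 stood furthest from the rest, in opposite directions. Each is the 250 bases before the RefSeq transcript start on GRCm38.p6, read in the direction of the gene, with the GC box GGGCGG or its reverse complement CCGCCC in capitals. The Sdc3 window is chr4:130792287-130792536 on the plus strand, and the Sdc4 window is chr2:164443189-164443438 on the minus strand. The Sdc4 window lies inside the gene as GENCODE M21 places it, chr2:164424247-164443887, and so downstream of the start annotated there.
Sdc3: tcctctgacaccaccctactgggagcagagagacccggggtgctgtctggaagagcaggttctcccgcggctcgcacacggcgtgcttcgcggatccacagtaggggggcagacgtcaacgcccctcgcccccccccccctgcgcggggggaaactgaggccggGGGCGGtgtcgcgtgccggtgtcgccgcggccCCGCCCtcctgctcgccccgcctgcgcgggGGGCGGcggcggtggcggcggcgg
Sdc4: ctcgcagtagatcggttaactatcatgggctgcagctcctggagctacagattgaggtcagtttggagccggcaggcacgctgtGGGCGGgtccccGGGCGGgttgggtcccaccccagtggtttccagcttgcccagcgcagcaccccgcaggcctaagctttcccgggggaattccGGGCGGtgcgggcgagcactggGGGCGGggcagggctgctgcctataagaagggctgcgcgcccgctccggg
The Sdc3 window held 3 GC boxes and the Sdc4 window 4, counting both strands, and 32.7% of 32851 promoter windows of this length held at least 1. The windows of the other syndecans and glypicans with a promoter entry each held at least 1 too, with 3 in Sdc1, Gpc2 and Gpc3. Neither held the E-box CANNTG, which occurred in 66.2% of windows, or the AP-1 sequence TGANTCA, which occurred in 6.7%. The E-box was also absent from the windows of Gpc3, Gpc4 and Gpc5, and the AP-1 sequence from all those of syndecans and glypicans. Both windows were rich in GC, at 76.4% for Sdc3 and 68.0% for Sdc4, against a median of 52.4%. Motif matches describe these letters only. Of the 10 genes, 7 had a promoter entry, and Sdc2, Gpc1 and Gpc6 are named only.

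Levels of different genes were set side by side as CPM per kilobase of transcript, with the median length of the annotated coding transcripts. Gpc1, the main glypican of adult muscle and a co-receptor for fibroblast growth factors, was the most abundant of the 10 in every library, with 94.6 to 122 CPM per kilobase. It took between 63.7% and 67.9% of the summed level of the 10 genes, and between 72.1% and 75.7% with the longest transcript of each gene. Sdc4 followed with 11.2 to 26.4 CPM per kilobase, then Sdc3 with 15.3 to 25.8, and these overlapped. Gpc4 had 7.85 to 11.4, Sdc2 3.37 to 4.33 and Gpc6 1.58 to 2.19 CPM per kilobase, and none of these ranges overlapped with that of the next gene in this order, although the highest value of Gpc4 passed the lowest of Sdc4. Sdc1, with 0.776 to 1.32, and Gpc3, with 0.691 to 0.994 CPM per kilobase, overlapped. Gpc2 stood below them at 0.0716 to 0.157, and Gpc5 was at 0. The place of Sdc3 depends on the length chosen: its median coding transcript in GENCODE is 659 bases and its longest 4973 bases. With the longest transcript Sdc3 had 2.03 to 3.42 CPM per kilobase and stood after Gpc4 and Sdc2, with its range overlapping that of Sdc2, and Gpc4 then came directly after Sdc4.

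**Figure D1:**
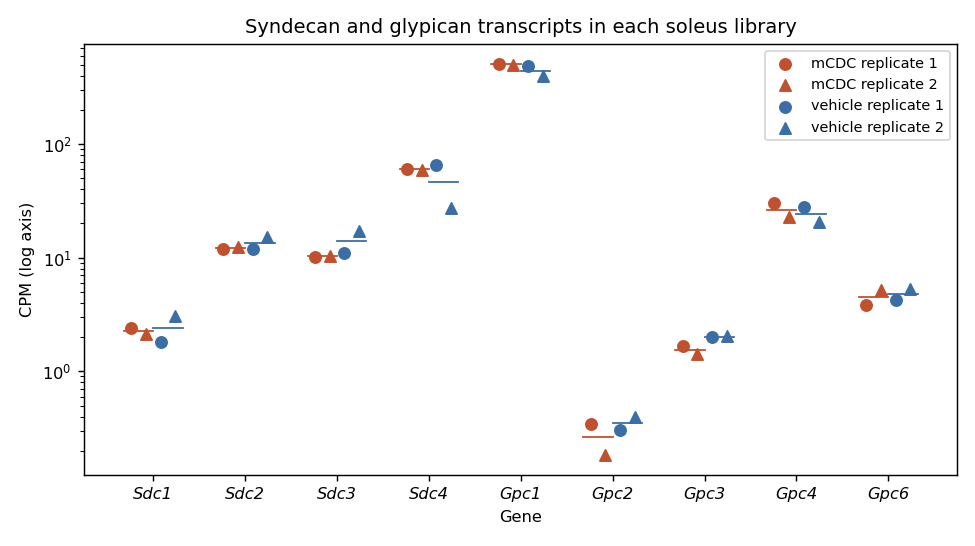
CPM (log axis) of 9 genes in each of the 4 libraries; orange marks mCDC and blue vehicle, circles are replicate 1, triangles replicate 2, and short lines are group means. Gpc1 lies between 395 and 510.3 CPM in all libraries, and the vehicle replicate 2 triangle lies below the other 3 points for Sdc4 and above them for Sdc3; Gpc5, at 0 in all 4, is not drawn.

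Among the syndecans, Sdc4, which joins integrins at focal adhesions and activates protein kinase C alpha, had 60.4 and 59.4 CPM in mCDC replicates 1 and 2, and 64.9 and 27.4 CPM in vehicle replicates 1 and 2. The mCDC libraries thus lay between the vehicle libraries, and the groups overlapped. The means were 59.9 ± 0.75 CPM (SD, n = 2) in mCDC muscles and 46.1 ± 26.5 CPM (SD, n = 2) in vehicle muscles. The log2 fold change of Sdc4 was 0.38 (standard error 0.33, 95% interval -0.39 to 1.14), with an adjusted p of 0.811 in the quasi-likelihood test of edgeR. The sign rested on vehicle replicate 2. Without that library the log2 fold change was -0.12, and without vehicle replicate 1 it was 1.13 and the gene was called (unadjusted p = 3.2e-04 in the quasi-likelihood test). That fit has a lone vehicle library, which is assumed to vary like the mCDC libraries, so this p does not carry the spread between vehicle libraries. The 2 vehicle libraries differed by 2.37-fold in Sdc4, a gap that 2.98% of 13639 tested genes reached or passed, while the mCDC libraries differed by 1.02-fold.

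Sdc3, the other syndecan of satellite cells, had 10.1 and 10.4 CPM in mCDC replicates 1 and 2, and 11.1 and 17.0 CPM in vehicle replicates 1 and 2. Both mCDC libraries were lower than both vehicle libraries, by little in vehicle replicate 1. The log2 fold change of Sdc3 was -0.45 (standard error 0.23, 95% interval -0.99 to 0.08), with an adjusted p of 0.731 in the quasi-likelihood test of edgeR. Its unadjusted p of 0.0853 in that test was the smallest of the 8. Here too vehicle replicate 2 set the size. The log2 fold change was -0.11 without it, and it was -0.73 without vehicle replicate 1, where the gene was called (unadjusted p = 0.00675 in the quasi-likelihood test), under the same assumption about the lone vehicle library. Annotated antisense genes, Gm12970 and Gm26716, overlap Sdc3 and are not listed in the table, and the strand setting of the counting is not given in the sources used here. The ratio of Sdc4 to Sdc3 in CPM was 5.98 and 5.70 in the mCDC libraries, 5.87 in vehicle replicate 1 and 1.61 in vehicle replicate 2.

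Satellite cell markers did not all move together. Of 9 tested, 6 had log2 fold changes above 0 and 3 below, with a median of 0.15. Among these 9, 1 was called higher and 1 lower, 22.2%, beside 4.0% of all tested genes. Pax7, the transcription factor that defines these cells, was called higher, with 2.99 and 2.88 CPM in mCDC muscles against 1.87 and 1.60 CPM. Chodl, a lectin-like surface protein of quiescent satellite cells, was called lower, with 2.35 and 2.1 CPM against 4.39 and 3.78 CPM. The other 7 tested markers of the 10 on the list were not called, and none of the 10 was at 0. Left without Des, the desmin gene that muscle fibres also express, the list summed to 301 and 381 CPM in mCDC muscles and to 251 and 278 CPM in vehicle muscles. Most of this sum was Itga7, an integrin chain that fibres also express, with 234 and 318 CPM in mCDC muscles and 196 and 218 CPM in vehicle muscles. Pax7 was thus higher in both mCDC libraries, where Sdc3 was lower and Sdc4 lay within the vehicle range. The part of satellite cells in the values of Sdc3 and Sdc4 was not tested.

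Sdc2, the syndecan of fibroblasts and vessels, had 12.0 and 12.5 CPM in mCDC replicates 1 and 2, and 11.9 and 15.3 CPM in vehicle replicates 1 and 2. The mCDC libraries lay within the vehicle range. For Sdc2 the log2 fold change was -0.15 (95% interval -0.59 to 0.29), and 0.04 without vehicle replicate 2. Sdc1, the syndecan of epithelia and plasma cells, had 2.39 and 2.15 CPM in mCDC muscles and 1.79 and 3.05 CPM in vehicle muscles, and again the vehicle libraries enclosed the mCDC libraries. Its log2 fold change was -0.10 (95% interval -0.86 to 0.67), and 0.34 without vehicle replicate 2. Plasma and B cell markers summed to 1.22 to 2.56 CPM per library, with 1 of 10 tested and 1 at 0. Epithelial markers summed to 5.31 to 7.09 CPM in 3 libraries and to 19.0 CPM in mCDC replicate 1, with none of 8 at 0.

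The 4 syndecans together had 84.9 and 84.4 CPM in mCDC replicates 1 and 2, and 89.6 and 62.8 CPM in vehicle replicates 1 and 2. Sdc4 made up 71.2% and 70.3% of this sum in the mCDC libraries, 72.4% in vehicle replicate 1 and 43.7% in vehicle replicate 2. The sum overlapped between the groups. Without Sdc4, the other 3 summed to 24.5 and 25.0 CPM in mCDC muscles, 24.8 CPM in vehicle replicate 1 and 35.3 CPM in vehicle replicate 2. Each syndecan differed by 1.02-fold to 1.11-fold between the mCDC libraries and by 1.28-fold to 2.37-fold between the vehicle libraries.

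Among the glypicans, Gpc1 had 510.3 and 493 CPM in mCDC replicates 1 and 2, and 489 and 395 CPM in vehicle replicates 1 and 2. Both mCDC libraries were above both vehicle libraries, though mCDC replicate 2 and vehicle replicate 1 were close. Its means were 502 ± 12.2 CPM (SD, n = 2) and 442 ± 66.5 CPM (SD, n = 2). The log2 fold change was 0.18 (standard error 0.15, 95% interval -0.17 to 0.53), with an adjusted p of 0.797 in the quasi-likelihood test of edgeR, and it was 0.04 without vehicle replicate 2. This was the narrowest interval of the 8 genes, and its upper end, a fold change of 1.45, stayed under 1.5-fold. The gene lies at chr1:92831645-92860779 and contains Mir149, which was listed at 0 in all libraries. Its end overlaps Ankmy1 on the other strand, which had 10 counts over all libraries, and the antisense genes Gm29481 and Gm29480, not listed in the table, overlap it too.

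Gpc4 and Gpc3 are neighbours on chromosome X, at chrX:52053021-52165252 and chrX:52272426-52613950, with 107.2 kilobases and no annotated gene between them. Gpc4, known from synapse formation and Wnt signalling, had 30.2 and 22.8 CPM in mCDC replicates 1 and 2, and 27.7 and 20.8 CPM in vehicle replicates 1 and 2. The groups overlapped, and the log2 fold change of 0.13 (95% interval -0.34 to 0.60) was -0.06 without vehicle replicate 2 and -0.08 without mCDC replicate 1. Gpc3, which restrains Hedgehog signalling and limits body size, had 1.67 and 1.42 CPM in mCDC muscles and 1.98 and 2.04 CPM in vehicle muscles. Both mCDC libraries were lower, on 31 to 56 counts per library, and the log2 fold change was -0.38 (standard error 0.30, 95% interval -1.07 to 0.32), with an adjusted p of 0.790 in the quasi-likelihood test of edgeR. It stayed between -0.50 and -0.27 with any library left out and was not called. Per kilobase, Gpc4 was 7.89 to 14 times as abundant as its neighbour.

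Gpc5 and Gpc6 are the other neighbouring pair, at chr14:115092215-116525179 and chr14:116925315-117976544, with 400.1 kilobases and 1 annotated gene, not protein-coding, between them. Gpc5 had no count in any library, which allows up to 0.0294 CPM over the 4 libraries (3 counts, counting error only). Gpc6 had 3.82 and 5.21 CPM in mCDC replicates 1 and 2, and 4.23 and 5.31 CPM in vehicle replicates 1 and 2, which overlapped. For Gpc6 the log2 fold change was -0.09 (95% interval -0.68 to 0.51), and its sign turned without mCDC replicate 1 (0.13) or vehicle replicate 2 (0.09). Gpc2, a glypican of the developing nervous system, had 9 and 4 counts in mCDC replicates 1 and 2, and 8 and 11 counts in vehicle replicates 1 and 2, below the filter on low counts of the main test. DESeq2, which kept it, gave a log2 fold change of -0.41 with an unadjusted p of 0.725.

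The glypicans together had 546 and 523 CPM in mCDC muscles, and 523 and 424 CPM in vehicle muscles, and Gpc1 made up 93.3% to 94.3% of the sum in every library. Libraries did not overlap between groups for 3 of the 8 tested proteoglycans, with Gpc1 higher and Sdc3 and Gpc3 lower in mCDC muscles, while 38.7% of all tested genes did not overlap, 19.2% with mCDC higher and 19.5% with mCDC lower. For any single gene, 2 libraries against 2 allow an exact two-sided permutation p of 0.33 at the lowest.

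**Figure D2:**
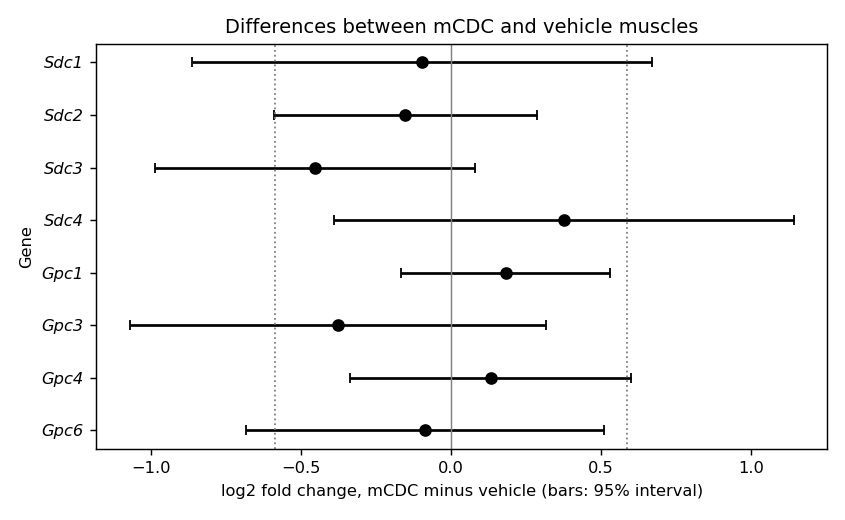
log2 fold change (mCDC minus vehicle) of the 8 tested genes, with bars for the 95% interval from edgeR's quasi-likelihood fit; dotted lines mark 1.5-fold in each direction. Every bar crosses 0, and only that of Gpc1 (-0.17 to 0.53) lies wholly within the dotted lines.

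**Figure D3:**
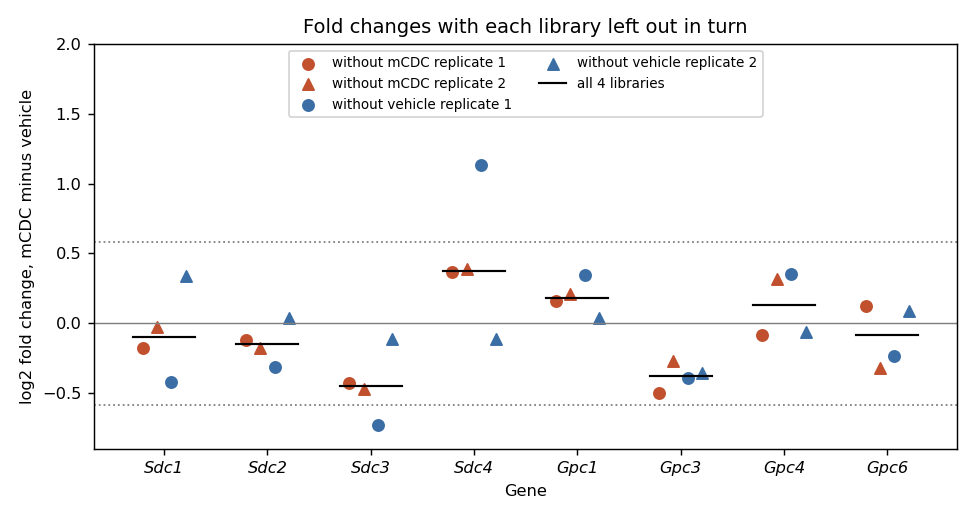
log2 fold change of the same genes with each library left out in turn; symbols are coloured by the group of the library left out (orange mCDC, blue vehicle; circle replicate 1, triangle replicate 2), black lines are the fits to all 4 libraries, and dotted lines mark 1.5-fold. Sdc4 runs from -0.12 without vehicle replicate 2 to 1.13 without vehicle replicate 1, and Gpc3 stays below 0 throughout.

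Genes that make, cut and read heparan sulfate, and a list of chondroitin sulfate proteoglycans for comparison, were counted on 8 lists with 200 genes, 161 of which were tested. In mCDC muscles 6 of these genes were called higher and 10 lower, 9.94% of those tested. Of all tested genes 4.0% were called, 1.26% higher and 2.74% lower. The lists were chosen with earlier results of these data known, so the difference between these shares cannot be read as a result. The median log2 fold change of the 161 genes was -0.06. None of the calls reached an adjusted p under 0.05 in the quasi-likelihood test, where the smallest over all genes was 0.200. With each library left out in turn, 5 of the 16 genes were called every time, namely Timp3, Hbegf, Ptch1, Itga5 and Tgfbr3. Under all 17 alternatives, other tests, scalings and filters included, 4 were called every time, and Tgfbr3 was lost when a trend in transcript length and GC content was removed.

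The enzymes that build heparan sulfate chains were not called in either direction (0 of 24 tested, of 32 listed), with 13 above 0 and 11 below and a median log2 fold change of 0.01, which ran from -0.027 to 0.11 with each library left out. Ext1 and Ext2, which polymerise the chain, had log2 fold changes of 0.25 and 0.01, and Ndst1, which begins its sulfation, had -0.18. The range ran from -0.64 for Papss2, which makes the sulfate donor, to 0.41 for Ugdh, which makes a sugar precursor. These 5 genes, named after their values were seen, did not pass the test. The 10 lysosomal enzymes that take the chains apart were not called either, with a median of -0.09 that turned to 0.027 without mCDC replicate 2, was -0.0028 without vehicle replicate 1 and -0.17 without mCDC replicate 1. Hs6st3 and Hs3st6 were listed at 0.

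Of 12 tested genes on the list for trimming of the chains and release of the core proteins, which holds the inhibitor Timp3 beside the enzymes, 1 was called higher and 2 lower. Timp3, a matrix-bound inhibitor of the metalloproteinases that shed syndecans, had 32.1 and 42.9 CPM in mCDC replicates 1 and 2, and 59.8 and 86.0 CPM in vehicle replicates 1 and 2. Its log2 fold change was -0.96 (standard error 0.21), and it ran from -1.19 to -0.67 with each library left out. Mmp2, a gelatinase, had 23.2 and 23.9 CPM against 31.0 and 43.3 CPM, and was not called without vehicle replicate 2. Notum, a secreted enzyme that removes the lipid from Wnts and acts with glypicans, had 1.10 and 1.0 CPM against 0.420 and 0.364 CPM, on 72 counts over all libraries. It was not called without mCDC replicate 1 or with DESeq2. The sheddases Adam10 and Adam17 were not called, with log2 fold changes of -0.12 and -0.10. Sulf1 and Sulf2, which remove sulfate outside the cell, had -0.54 and 0.48 and did not pass the test.

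Of 24 cytoplasmic partners of syndecans, Arf6 was the only gene called. Arf6, a small GTPase that with syntenin returns syndecans to the surface, had 66.7 and 98.0 CPM in mCDC replicates 1 and 2, and 53.5 and 45.8 CPM in vehicle replicates 1 and 2. Its log2 fold change was 0.73 (standard error 0.20), and it was 0.43 and not called without mCDC replicate 2. The median of the list was 0.09, but 0.023 without mCDC replicate 2, 0.18 without mCDC replicate 1 and 0.014 on total counts. Sdcbp, which encodes syntenin, had 0.26 and Prkca, the kinase that Sdc4 activates, had 0.02, and neither passed the test.

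Among 36 tested ligands that bind heparan sulfate, 1 was called higher and 1 lower. Hbegf, a growth factor of the epidermal growth factor family that needs heparan sulfate for full activity, had 19.3 and 34.4 CPM in mCDC muscles and 7.17 and 6.65 CPM in vehicle muscles. It was called with every library left out, and its log2 fold change stayed between 1.49 and 2.31. Fn1, the fibronectin to which Sdc4 attaches cells, had 48.3 and 35.8 CPM against 56.5 and 82.5 CPM, and its log2 fold change of -0.72 (standard error 0.22) was -0.43 and not called without vehicle replicate 2. It was not called without mCDC replicate 2 or with the length and GC trend removed either. Itga5, a chain of the fibronectin receptor, had 68.3 and 89.6 CPM in mCDC muscles and 47.8 and 38.7 CPM in vehicle muscles, which gave 0.87 (standard error 0.18) as its log2 fold change. Itga5 was called under all 17 alternatives and Fn1 under 13, while Sdc4, the third partner at these adhesions, was called only without vehicle replicate 1.

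Of 41 tested receptors that act with heparan sulfate, Itga5 was called higher and 5 were called lower. Their median log2 fold change was -0.20, and it was -0.12 without vehicle replicate 2 or with the trend removed, and -0.11 with block and trend removal together. Ptch1, the Hedgehog receptor that is also switched on by the pathway, had 0.984 and 0.913 CPM in mCDC replicates 1 and 2, and 2.59 and 2.15 CPM in vehicle replicates 1 and 2, on 173 counts over all libraries. Its log2 fold change was -1.31 (standard error 0.32), between -1.44 and -1.17 with each library left out. Boc, a Hedgehog co-receptor, had 2.95 and 2.74 CPM against 4.04 and 4.58 CPM, and was called with 1 of the 4 libraries left out, vehicle replicate 1. The call of Boc was also lost with DESeq2, with the block and with the trend removed. Shh, a Hedgehog ligand, was listed at 0. The vascular receptor Flt1 had 16.3 and 12.1 CPM against 16 and 35.5 CPM, so its groups overlapped, and its log2 fold change of -0.86 was -0.17 without vehicle replicate 2, the library with the most endothelial marker transcripts. It was not called without mCDC replicate 2, with the block or with the trend removed either. The Wnt receptor Fzd4 had 12.8 and 5.43 CPM against 20.3 and 13.9 CPM, and was not called without mCDC replicate 2 or vehicle replicate 1, with no filter on low counts or with the trend alone removed. Robo1, a Slit receptor, rested on 47 counts over all libraries and was not called with any library left out, with DESeq2, with the block or with the trend removed.

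Among the other heparan sulfate proteoglycans, 1 of 8 tested genes was called higher and 2 lower. Their median log2 fold change was -0.34, but 0.016 without vehicle replicate 2. The median of the chondroitin sulfate proteoglycans was -0.26, but 0.30 without that library. Tgfbr3, the co-receptor betaglycan, had 14.4 and 13.2 CPM in mCDC replicates 1 and 2, and 23.5 and 20.8 CPM in vehicle replicates 1 and 2. The groups were well separated, and its log2 fold change of -0.68 (standard error 0.16) stayed between -0.77 and -0.59 with each library left out. The call was lost once the trend in length and GC was taken out, with or without a block for the replicate number. Agrn, the agrin that gathers acetylcholine receptors, had 29.7 and 27.1 CPM against 34.5 and 50.7 CPM, and was not called without vehicle replicate 2 (-0.28) or mCDC replicate 2. Agrn was called under 10 of the 17 alternatives, and the call was also lost with DESeq2, its size factors, the block and the removal of the trend. Cd44, the hyaluronan receptor, some of whose splice forms carry heparan sulfate, had 10.8 and 25.5 CPM against 11.0 and 9.20 CPM. Its higher mean came from mCDC replicate 2, without which its log2 fold change was 0.09, and it was not called without either vehicle library. Cd44 was called under 8 of the 17 alternatives, and was lost also with upper-quartile scaling, on total counts, with other filters and with the block. Hspg2, the perlecan of basement membranes, had a log2 fold change of -0.02. For comparison, of 6 tested chondroitin sulfate proteoglycans only Cspg4, found on pericytes, was called, at 61.7 and 104.9 CPM in mCDC muscles and 51.8 and 56.1 CPM in vehicle muscles, and it was not called without mCDC replicate 2, without either vehicle library, on total counts or with the block.

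**Figure D4:**
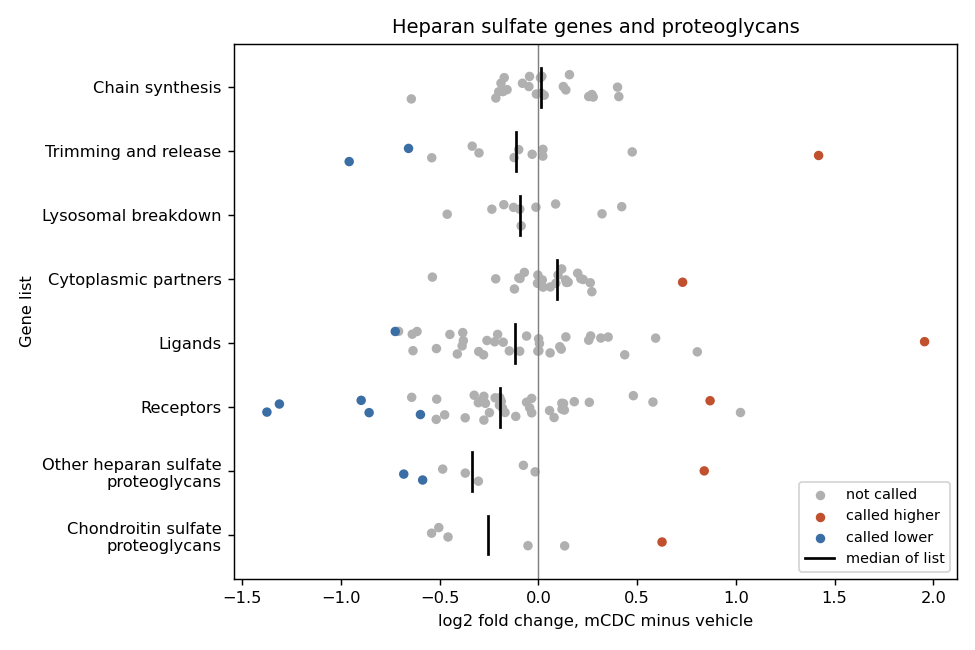
log2 fold change (mCDC minus vehicle) of the tested genes on each of 8 heparan sulfate and proteoglycan lists; each point is a gene, orange if called higher, blue if called lower and grey if not called, and black bars are list medians. Chain synthesis has no called gene and a median of 0.01, while the receptors have 5 genes called lower and 1 higher and a median of -0.20. The lowest medians are those of the other heparan sulfate proteoglycans (-0.34) and the chondroitin sulfate proteoglycans (-0.26).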

How the data were processed

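Total RNA of soleus muscles was sequenced as single-end reads. Per the labels and the study's methods, the authors mapped reads to a UCSC transcript set (mm10 is the build listed) with Bowtie2 2.1.0 and deposited expected counts per gene from RSEM 1.2.15, without normalization; 15.7% of values were not whole. The labels name a stranded library kit and the methods another kit.

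Expected counts were rounded and tested on the whole table in R 4.3.3 by the quasi-likelihood F-test of edgeR 4.0.16 (legacy = FALSE), after filterByExpr and scaling by trimmed mean of M-values, and p-values were adjusted by Benjamini-Hochberg over 13652 genes. The standard error was taken as |log2 fold change| over the root of F. On simulated data with 200 changed genes, 88.5% of genes changed 2-fold and 99.2% of those changed 4-fold were called. The simulation gave both groups the same spread and drew the changed genes from all kept genes. These shares therefore do not show the power for the syndecans and glypicans. DESeq2 1.42.0 was an alternative. Coordinates and lengths came from GENCODE M21 (GRCm38), which gave a length for 98.4% of symbols, and promoters from RefSeq. The 10 genes and all lists were chosen with earlier results of these data known. The 10 genes and every called gene of the pathway lists were named, with at most 3 called genes in each direction from a marker list, and the uncalled genes of these lists that are named were picked as examples after their values were seen. Results for the satellite, fibro-adipogenic and endothelial marker lists are in the text, with sums for the plasma and B cell, epithelial and fibre lists. On these last lists no gene was called, of 1, 2 and 10 tested. The other marker lists had 1 gene called higher (Scx) and 4 lower (Tnmd, Comp and Fmod with the smallest p) of 9 tested for tenocytes, 1 (Cd68) and 1 (Csf1r) of 10 for macrophages, 0 and 1 (Rgs5) of 10 for pericytes, 0 and 1 (Hba-a2) of 5 for red cells, 1 (Runx1) and 0 of 8 for nerve and denervation, and none of 10 each for Schwann cells and adipocytes.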

Additional observations from a re-analysis of the deposited data

How the results depend on the processing

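Other tests, scalings and filters, thinned counts, a replicate block, a fit without the trend in length and GC, and each library left out were tried, and for no change was the cause tested. None of the 8 tested proteoglycans was called under any of them except without vehicle replicate 1, where 2 were (Sdc3 and Sdc4); over the libraries left out the number called ran from 0 to 2. With libraries left out, log2 fold changes ran from -0.42 to 0.34 for Sdc1, -0.32 to 0.038 for Sdc2, -0.12 to 1.13 for Sdc4, -0.084 to 0.36 for Gpc4 and -0.32 to 0.13 for Gpc6. Signs turned without vehicle replicate 2 for all 5 (Gpc4 -0.061, Gpc6 0.087) and without mCDC replicate 1 for Gpc4 and Gpc6. With libraries left out, 112 to 397 genes were called higher and 236 to 834 lower, and of the genes on the 8 lists 3 to 9 higher and 4 to 22 lower. On total counts, 121 genes were called higher and 508 lower, in place of 172 and 374. The median over the proteoglycans ran from -0.28 to -0.013 with libraries left out, and was -0.077 with DESeq2, -0.13 with upper-quartile scaling, -0.17 on total counts, -0.12 with thinned counts and -0.058 with the length and GC trend removed, where 3 list genes were called lower. With the replicate block, the median was -0.073 and 6 list genes were lower, in place of 10; with block and trend removal together it was -0.044, 4 list genes were lower, and 192 genes were called higher and 243 lower. Replicate numbers are not stated to pair muscles, and the differences between replicates 1 and 2 in the 2 groups correlated across genes at -0.04. The block changed no call among the syndecans and glypicans. Gpc2, with at most 11 counts per library, and Gpc5, with none, did not enter the main test. Whether this came from depth or from low or absent expression was not tested. No group held enough libraries for a test of outlying values.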
